A study of Mus musculus with 66 samples.

Results

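The protein-coding genes of mouse chromosome 8 that are expressed in embryonic stem cells were followed across 7 RNA-Seq libraries. A gene was included when RefSeq lists it as protein-coding on chromosome 8 and its mean TPM in the 3 wildtype libraries was 1 or more. TPM scales a transcript level for gene length and brings every library to the same sum. This gave 541 gene identifiers of the 55487 in the deposited tables, and of the 1016 protein-coding identifiers on the chromosome. The other 475 were under the minimum, 184 of them listed at TPM 0 in every wildtype library. Just inside the minimum lay Nrg1 at a mean TPM of 1.00 and Gm32856 at 1.01, and just outside it Zfp791 and Zfp319, both at 0.993. One symbol, Chtf8, is carried by 2 of the identifiers. The chromosome was picked because its genes were seen to be higher in GDel2 than in wildtype, so every value of GDel2 against wildtype is a description and supports nothing.

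The study asks how R-loops and G-quadruplexes, which are stacks of guanine tetrads, bear on binding by the insulator protein CTCF. All libraries used here came from untreated cells of ES-E14, a mouse embryonic stem cell line grown with serum, LIF and inhibitors of GSK and MEK. The 3 wildtype libraries carry the genotype label Wildtype. The 2 GDel1 and the 2 GDel2 libraries share 1 label, Praf2 G4 Deletion, that is, loss of a G-quadruplex sequence at Praf2. Whether GDel1 and GDel2 are each a single clone, and whether replicates are separate cultures, was not stated in the labels, so p-values measure only the spread between these libraries, which may be technical.

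Mouse embryonic stem cells are diploid, but cells kept in culture can gain or lose whole chromosomes. When a chromosome is gained, most of its genes tend to give more RNA in step with the extra copy, and single genes can depart from that through their own regulation. Mouse chromosome 8 carries genes for many housekeeping complexes, the metallothioneins Mt1 and Mt2, the stem cell gene Zfp42 and Ctcf itself.

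Below are the promoters of 4 of these genes, from 250 bases before to 50 bases after the annotated start, as given by RefSeq for GRCm38.p6. Mt2 and Mt1 are shown because they are abundant neighbours that were lower in GDel2 while most of the chromosome was higher, Zfp42 because it is a stem cell gene more than 2 times higher, and Ctcf because the study turns on it. Capitals mark every match to TGCACNC or TGCGCNC on either strand, together the core of the metal response element bound by MTF1, the zinc-sensing activator of the metallothioneins. The windows lie at chr8:94172368-94172667 on the plus strand for Mt2, chr8:94178839-94179138 on the plus strand for Mt1, chr8:43306960-43307259 on the minus strand for Zfp42 and chr8:105636288-105636587 on the plus strand for Ctcf.
Mt2: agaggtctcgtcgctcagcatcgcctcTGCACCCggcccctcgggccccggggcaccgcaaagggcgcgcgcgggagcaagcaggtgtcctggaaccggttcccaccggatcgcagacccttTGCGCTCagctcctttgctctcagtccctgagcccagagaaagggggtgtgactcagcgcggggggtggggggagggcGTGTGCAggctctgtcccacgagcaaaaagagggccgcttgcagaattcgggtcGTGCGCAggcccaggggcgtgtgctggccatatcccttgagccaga
Mt1: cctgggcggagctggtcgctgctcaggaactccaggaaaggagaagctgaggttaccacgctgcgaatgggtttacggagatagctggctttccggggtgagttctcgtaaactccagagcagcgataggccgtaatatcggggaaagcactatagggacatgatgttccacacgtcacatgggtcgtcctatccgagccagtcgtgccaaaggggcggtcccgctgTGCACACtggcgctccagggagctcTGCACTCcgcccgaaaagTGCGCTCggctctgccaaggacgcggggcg
Zfp42: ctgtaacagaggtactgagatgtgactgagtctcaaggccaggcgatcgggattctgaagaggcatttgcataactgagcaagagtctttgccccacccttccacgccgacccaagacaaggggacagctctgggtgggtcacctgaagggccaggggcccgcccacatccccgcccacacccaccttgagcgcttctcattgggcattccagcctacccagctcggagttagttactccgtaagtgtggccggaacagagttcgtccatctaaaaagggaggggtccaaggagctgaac
Ctcf: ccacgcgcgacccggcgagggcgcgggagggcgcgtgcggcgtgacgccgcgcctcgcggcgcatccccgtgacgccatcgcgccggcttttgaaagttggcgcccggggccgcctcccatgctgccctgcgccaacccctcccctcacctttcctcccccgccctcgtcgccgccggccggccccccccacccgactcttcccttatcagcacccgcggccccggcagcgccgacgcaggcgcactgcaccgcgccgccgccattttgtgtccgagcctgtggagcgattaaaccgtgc
The Mt2 window holds 4 matches, 2 on each strand, and the Mt1 window 3, all on the strand printed. Those of Zfp42 and Ctcf hold 0. Of the 32851 RefSeq windows of this length, 25.7% held at least 1 match and 0.517% held 4 or more. The windows also differ in CG dinucleotides, with 24 each at Mt2 and Mt1, 11 at Zfp42 and 47 at Ctcf, against a median of 7 over all windows.

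The libraries held 12316853 to 18762704 expected counts each. Praf2, on chromosome X, had 27.5 to 30.6 normalised counts (CPM, counts scaled by library size) in wildtype. It had 9.26 to 10.1 in GDel1 and 13.1 to 14.1 in GDel2, so both deletion groups lay below wildtype. The label names a deletion and gives no RNA level. Markers of embryonic stem cells summed to a TPM of 1666 to 2289 with 0 of 8 at 0. Fibroblast feeder markers summed to 1.17 to 1.67 in wildtype, 0.64 and 0.67 in GDel1, and 2.29 and 2.83 in GDel2, with 2 to 4 of 7 at 0. Differentiation markers summed to 1.51 to 1.86 in wildtype, 0.87 to 1.19 in GDel1, and 4.36 and 3.51 in GDel2. Most of that sum in GDel2 was Eomes, at a TPM of 0.85 to 0.89 in wildtype, 0.59 and 0.53 in GDel1, and 3.53 and 2.75 in GDel2, while Cdx2 on the same list stood at 0.35 to 0.66, 0.17 and 0.18, and 0.12 and 0.10. The share of counts in mitochondrially encoded genes was 9.91% in GDel1 replicate 1 and 9.60% in GDel2 replicate 2, and 4.83% to 6.89% in the other 5 libraries. The part of these differences in the results was not tested.

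Expressed genes of chromosome 8 were higher in both GDel2 libraries and level in GDel1. Each gene's CPM, scaled by TMM, was divided by its mean over the wildtype libraries. Over the 540 genes that passed the count filter the median of this ratio was 1.00, 1.01 and 0.990 in the wildtype libraries, 0.992 and 0.981 in GDel1, and 1.37 and 1.33 in GDel2. Neither GDel2 library overlapped the range of the other 5. Yjefn3, the single member that did not pass the filter, had 3 to 15 counts in every library. On the log2 scale the median for the GDel2 mean was 0.44 (SD between its 2 libraries 0.028), a ratio of 1.36, and for GDel1 -0.01 (SD 0.011). Over all expressed protein-coding genes, this chromosome included, the GDel2 median was -0.02. Summed over the members, CPM was 1.35 and 1.34 times the wildtype mean in the GDel2 libraries and 0.997 and 0.976 times in GDel1. As a share of all expected counts, the members held 3.35% to 3.40% in wildtype, 3.02% and 3.30% in GDel1, and 4.58% and 4.25% in GDel2. These are bulk libraries, in which more cells with a raised level and more RNA in each cell cannot be told apart, and no measure of DNA copy number is used here.

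**Figure D1:**
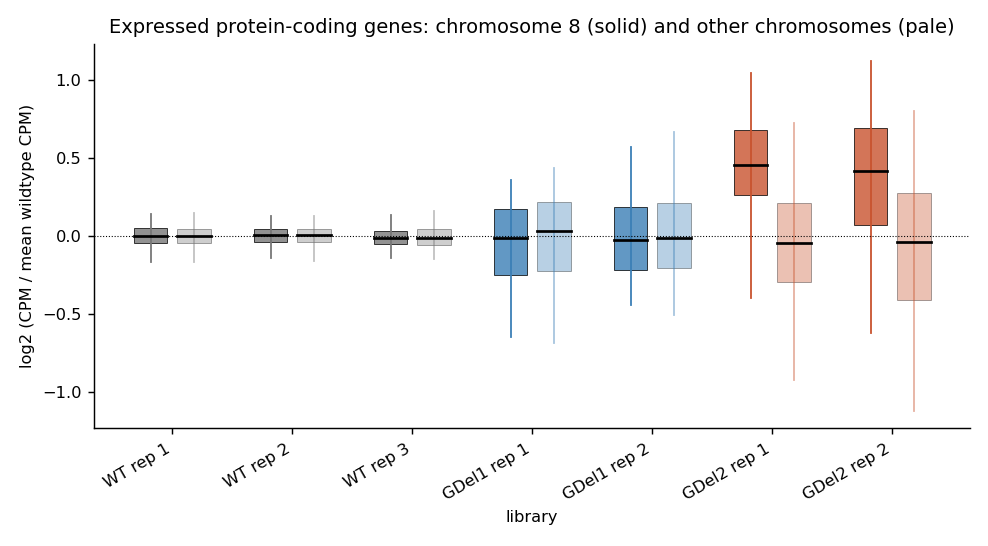
Log2 of CPM over the wildtype mean (vertical axis) in each of the 7 libraries (horizontal axis), for the 540 chromosome 8 genes (solid boxes) and the 9537 expressed protein-coding genes of all other chromosomes (pale boxes). Boxes span the quartiles, black bars are medians and lines reach from the 5th to the 95th percentile; the solid GDel2 boxes sit above 0 at medians of 0.46 and 0.42, and those of GDel1 are centred near 0.

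The genes did not share 1 ratio. The fitted log2 ratio of GDel2 to wildtype had quartiles of 0.18 and 0.68, an interquartile range of 0.50, against 0.36 for GDel1. In GDel2 the range was 0.57 on chromosome 6 and 0.49 to 0.67 on the other 18 chromosomes. A spread of this size is thus not particular to chromosome 8. The median distance of a gene from the common value was 0.25. The median difference between libraries was 0.14 for the 2 GDel2 libraries, 0.22 for the 2 GDel1 libraries and 0.068 to 0.086 for pairs of wildtype libraries. A distance from a common value and a difference between libraries are unlike measures, so their sizes are not compared. Both GDel2 libraries lay between 1.25 and 1.75 times the wildtype mean for 182 members, or 33.7%, against 9.10% of genes on other chromosomes. Both were above 2 times the mean for 26 members (4.81%) and under 1/2 of it for 9 (1.67%). On the other chromosomes these shares were 1.63% and 3.43%.

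Of the 540 genes, 414 (76.7%) were above the wildtype mean in both GDel2 libraries, 67 were above it in 1 and at or under it in the other, and 59 (10.9%) were at or under it in both. These 59 are called the escaping genes here; over all 10077 expressed protein-coding genes of the genome 43.6% met that rule. Without overlap, 394 members had both GDel2 libraries above every wildtype library and 46 had both below, where the shares over all 15421 genes tested were 32.2% and 31%. By edgeR's quasi-likelihood test with Benjamini-Hochberg adjustment over all 15421 genes, 306 members passed the threshold of 0.05 as higher in GDel2 than in wildtype and 34 as lower. Over all genes tested 17.4% passed as higher and 15.6% as lower. A change of at least 2-fold was reached by 40 of the higher and 9 of the lower. Among 9537 expressed protein-coding genes of the other chromosomes it was reached by 207 called higher and 412 called lower. When each library was left out in turn, 193 of the 306 and 19 of the 34 were called in every 1 of the 7 fits, and no member called changed direction. Without GDel2 replicate 2, 19 members were called lower.

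The genes also departed from the chromosome's own common ratio. With the median of its chromosome taken as the baseline for each gene, 89 members were called above and 81 below. Over all genes, each set against its own chromosome, 16% were called above and 13.5% below, so the members' shares, 16.5% and 15%, lay near those of the genome. Without GDel2 replicate 2 the counts were 36 and 43. Leaving out wildtype replicate 1, 2 or 3 gave 57, 48 or 51 above, and leaving out replicate 2 or 3 gave 49 or 52 below.

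Chromosome 6 had like values in the same libraries. Its 458 expressed protein-coding genes had a GDel2 median of 0.50 on the log2 scale, and 283 were called higher and 31 lower. The medians of the other 18 chromosomes ran from -0.18 to 0.08, with interquartile ranges of 0.49 to 0.67 around them. On chromosome 8, 37 genes of other biotypes with a wildtype TPM of 1 or more had a median of 0.20, with 3 called higher and 0 lower (edgeR). For 122 protein-coding genes with a wildtype TPM under 1 the median was 0.72, with 52 higher and 6 lower. For 16 lncRNA genes at any level it was 0.53, with 8 higher and 0 lower. A gene low in wildtype can pass the count filter through the GDel2 libraries alone, which favours high ratios in both of these sets. Their values therefore describe only the genes that passed. Differences between these sets were not tested.

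Every 10 Mb window along the chromosome had a median above 0 in both GDel2 libraries, to unequal extent. In windows of 10 Mb by gene start, the log2 median ran from 0.25 at 0 to 10 Mb (25 genes) to 0.72 at 40 to 50 Mb (29 genes). In the lowest window the libraries' own medians were 0.36 and 0.29 for GDel2, and in the highest 0.70 and 0.69. The window from 50 to 60 Mb, at 0.70, holds 8 genes and is thin, and the other 10 windows lay between 0.39 and 0.55. The GDel1 medians of the same windows ran from -0.13 at 110 to 120 Mb to 0.12 at 30 to 40 Mb, and reached 0.22 in the thin window. The escaping genes made up 6 of the 25 genes at 0 to 10 Mb, or 24%, and 8 of 42 at 20 to 30 Mb, or 19%. Between 40 and 50 Mb, 1 of 29 was an escaping gene, the atypical cadherin Fat1. The window of the highest median is home to Ufsp2, Snx25, Slc25a4, Acsl1, Cenpu, Primpol and Zfp42.

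**Figure D2:**
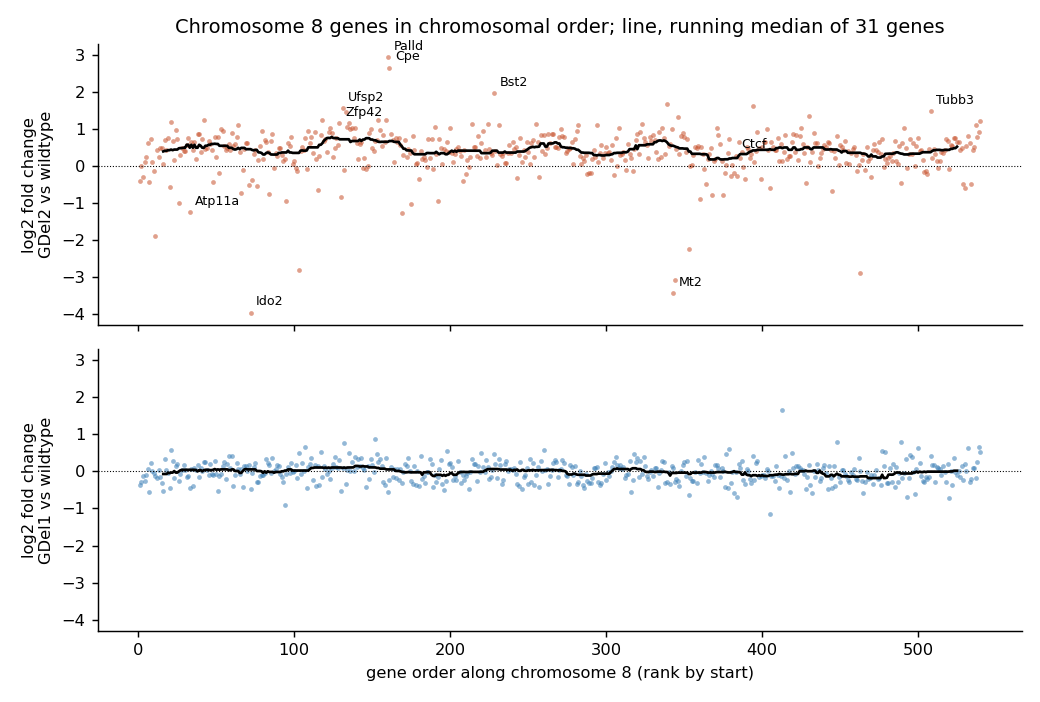
Fitted log2 fold change of each chromosome 8 gene against wildtype (vertical axis) in GDel2 (top) and GDel1 (bottom), by the order of gene starts along the chromosome (horizontal axis); points are genes and the line is the running median of 31 genes. The GDel2 line stays above 0 throughout and is highest near the genes that include Zfp42, while the GDel1 line stays near 0.

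The median was similar across levels in wildtype. It was 0.35 on the log2 scale for 162 members with a TPM of 1 to 5, 0.47 for 232 at 5 to 20, 0.45 for 132 at 20 to 100 and 0.37 for 14 at 100 or more. The scatter narrowed with level, from an interquartile range of 0.72 in the first class to 0.30 in the last. Escaping genes were 16.7%, 10.3%, 4.55% and 14.3% of these classes. Across genes the log2 ratio had a Spearman rho of 0.05 with TPM, -0.12 with effective length and -0.003 with genomic span (540 genes, which share libraries and are not independent replicates).

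Among the 59 escaping genes, 34 were called lower than wildtype and 57 below the common ratio. Against GDel1, 24 were called lower and 0 higher, and 46 had both GDel2 libraries below every wildtype library. The rule selects on the same GDel2 and wildtype values, so these counts follow largely from it and support nothing. The 34 and the 24 are all the members called lower in those contrasts. Over all genes tested, 15.6% were called lower than wildtype, 12.8% lower than GDel1 and 13.5% below their own chromosome's median. The median TPM of the escaping genes in wildtype was 5.81 against 10.4 for the other members, and 32 had a TPM of 5 or more. In GDel1, which is compared with the same wildtype libraries, their median log2 ratio was -0.19 against 0.01 for the other members. Just inside the rule stood Fanca, with a higher GDel2 ratio of 1.00, and just outside it Hook3, at 1.01. With 1 GDel2 library in place of both, replicate 2 alone put 120 of 541 genes at or under the wildtype mean and replicate 1 alone 68. Promoter windows were matched for 40 escaping genes and 348 others. Their median count of CG dinucleotides was 19 (quartiles 11 and 26) and 23 (17 and 30), and a match to either motif was held by 12 of the 40 and 140 of the 348.

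The most abundant escaping genes were the metallothioneins, small proteins that bind zinc and copper. Mt2, whose promoter is printed first above, had a mean wildtype TPM of 432, and its CPM was 229, 239 and 246 in wildtype, 258 and 249 in GDel1, and 21.8 and 22.5 in GDel2. Its neighbour Mt1 had a TPM of 281 and a CPM of 178, 170 and 170 in wildtype, 141 and 144 in GDel1, and 20.5 in both GDel2 libraries. For both genes GDel2 lay far below all other libraries. The log2 ratio of GDel2 to wildtype was -3.42 ± 0.09 (SE) for Mt2 and -3.07 ± 0.09 for Mt1, that is, 10.7-fold and 8.41-fold lower. The genes span 7.71 kb together. Expected counts are estimates per gene, and sharing of reads between these neighbours was not examined.

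Ido2, an enzyme of tryptophan breakdown, had the lowest ratio of all members. Its CPM was 12.7, 11.2 and 11.6 in wildtype, 8.45 and 8.59 in GDel1, and 0.947 and 0.578 in GDel2, a log2 ratio of -3.95 ± 0.22. Pkd1l2, a member of the polycystin family, stood at 2.87, 3.09 and 2.52 in wildtype, 2.98 and 2.76 in GDel1, and 0.316 and 0.434 in GDel2. Adgrg1, an adhesion G protein-coupled receptor, stood at 15.5, 12.2 and 12.9 in wildtype, 7.16 and 10.1 in GDel1, and 2.53 and 3.18 in GDel2. In each of these 3 the GDel2 libraries were below all others; they were picked after their values were seen, as were Irs2, Lpl, Zfp869 and Sfrp1 below.

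Of the 10 lowest escaping genes with a TPM of 5 or more, Mt2, Mt1 and 5 others were even between libraries, with both GDel2 libraries below all others. Atp11a, a phospholipid flippase, had a CPM of 130, 128 and 129 in wildtype, 93.3 and 96.8 in GDel1, and 57.8 and 50.9 in GDel2. Adrb3, a receptor for catecholamines, stood at 38.3, 37.6 and 37.6 in wildtype, 34.3 and 37.7 in GDel1, and 21.0 and 18.5 in GDel2. For Homer3, a scaffold protein of synapses, it was 22.4, 22.5 and 23.7 in wildtype, 21.2 and 19.98 in GDel1, and 12.1 and 11.9 in GDel2. Log2 ratios to wildtype were -1.25, -0.94 and -0.94. Ndrg4 and D230025D16Rik lay at -0.89 and -0.77 with the same separation.

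The remaining 3 of the 10 were less even between libraries. Tex15, needed in the male germline, stood at 95.5, 28.02 and 39.9 CPM in wildtype, 87.0 and 65.0 in GDel1, and 2.60 and 12.7 in GDel2. GDel2 lay below all other libraries and GDel1 within the wildtype range, and with the wide spread in wildtype the log2 ratio of -2.81 carried an SE of 0.87. Tex15 was not called lower than wildtype. Its call below the common ratio held in 0 of the 7 fits without 1 library. Fat1 was at 418, 424 and 404 in wildtype, 216 and 358 in GDel1, and 288 and 178 in GDel2. GDel1 and GDel2 overlap for this gene, and its call was lost without GDel2 replicate 2 (adjusted p = 0.211 by edgeR) or any 1 wildtype library (0.0918 to 0.101). Cmtm3, at -0.77, was no longer called without GDel2 replicate 2 (adjusted p = 0.117 by edgeR).

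Some lower genes are known from insulin and lipid handling, and are given here one by one and not as a group. Irs2, the adaptor that carries the signal of the insulin receptor, had a CPM of 31.9, 29.7 and 29.7 in wildtype, 25.2 and 25.4 in GDel1, and 15.9 and 14.5 in GDel2. Lpl, lipoprotein lipase, had 15.6, 17.1 and 16.4 in wildtype, 14.3 and 12.2 in GDel1, and 5.68 and 7.95 in GDel2. In both genes the libraries ranked as wildtype, GDel1, GDel2 from high to low, with no overlap. Zfp869, a zinc finger gene, lay at a log2 ratio of -1.02 and Sfrp1, a secreted inhibitor of Wnt signalling, at -0.51. Insr itself, at -0.41, had 31.8, 28.9 and 31.3 in wildtype, 21.3 and 25.8 in GDel1 and 23.7 and 22.6 in GDel2, so that its GDel2 libraries lay within the GDel1 range; it was called in 3 of the 7 fits without 1 library.

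Of the escaping genes, 15 stood beside another in the order of members, in 7 runs. The longest was Sfrp1, Ido2 and Adam9, and the tightest Mt2 and Mt1. The other runs were Stxbp2 with Fcor, Ap3m2 with Kat6a, Purg with Tex15, Fanca with Spire2, and Sipa1l2 with Map10.

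**Figure D3:**
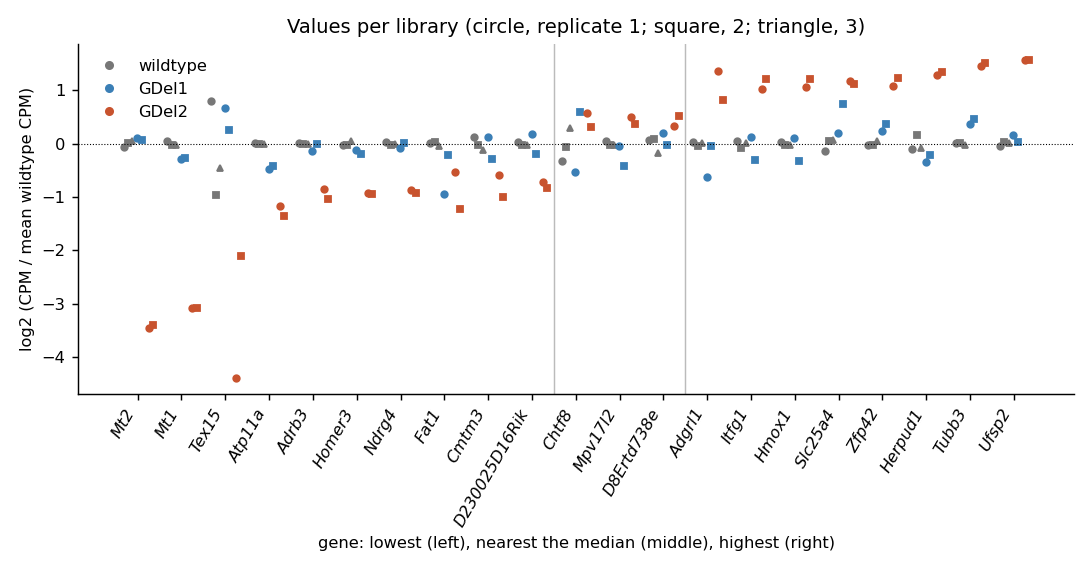
Log2 of CPM over the wildtype mean (vertical axis) in each library for the 10 lowest escaping genes with a TPM of 5 or more (left), the genes nearest the common ratio (middle) and the 8 highest genes with a TPM of 5 or more (right). Grey, blue and red points are wildtype, GDel1 and GDel2 libraries, shaped by replicate; Mt2 and Mt1 sit below -3 in both GDel2 libraries, and the 8 genes at the right sit above all their wildtype libraries.

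At the other end, 8 genes with a TPM of 5 or more had log2 ratios of 1.12 to 1.57, and in each of them both GDel2 libraries were above every other library. Ufsp2, a protease of the ubiquitin-like protein UFM1, had a CPM of 11.1, 11.8 and 11.6 in wildtype, 12.8 and 11.7 in GDel1, and 34.2 and 34.0 in GDel2. Tubb3, a beta-tubulin best known from neurons, had 29.9, 30.2 and 29.2 in wildtype, 38.4 and 41.1 in GDel1, and 81.6 and 85.4 in GDel2. These are fitted ratios of 2.97 and 2.81, above the common 1.36.

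Zfp42, also called Rex1, marks naive stem cells and is the most abundant of the 8, with a mean TPM of 68.3. Its CPM was 166, 166 and 176 in wildtype, 200 and 220 in GDel1, and 357 and 397 in GDel2. The libraries rank as wildtype, GDel1, GDel2 without overlap, and the log2 ratio to wildtype was 1.15 ± 0.09 for GDel2 and 0.31 for GDel1 (adjusted p = 0.0876 by edgeR). Other stem cell markers of the summed list, on any chromosome, were called in either direction in GDel2, with calls lost in some fits without 1 library. Without wildtype replicate 1 the log2 ratio was 0.39 for Nanog and -0.36 for Esrrb. It was -0.34 for Sox2 without wildtype replicate 3 and -0.73 for Dppa5a without GDel2 replicate 2. Herpud1, a part of the machinery that degrades misfolded proteins at the endoplasmic reticulum, stood at 6.55, 7.92 and 6.67 in wildtype, 5.55 and 6.09 in GDel1, and 17.3 and 18 in GDel2. Hmox1, heme oxygenase, stood at 47.5, 45.4 and 45.5 in wildtype, 49.99 and 37.0 in GDel1, and 96.9 and 106 in GDel2. The other 3 were Slc25a4, the ADP/ATP carrier of mitochondria, at a log2 ratio of 1.15, Itfg1 at 1.12 and the receptor Adgrl1 at 1.12, whose GDel2 libraries of 208 and 145 CPM differ most.

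Larger ratios came from genes of low level, picked after their values were seen. Palld, an actin-binding protein, had a TPM of 1.62 and a CPM of 8.10, 8.41 and 8.72 in wildtype, 6.44 and 5.05 in GDel1, and 61.8 and 68.2 in GDel2, a log2 ratio of 2.95 ± 0.12. Its neighbour in the order of members, Cpe, carboxypeptidase E, stood at 1.91, 1.24 and 0.998 in wildtype, 0.966 and 1.301 in GDel1, and 9.08 and 8.10 in GDel2. Bst2, the antiviral tetherin, stood at 1.18, 0.990 and 1.10 in wildtype, 1.29 and 1.67 in GDel1, and 4.18 and 4.34 in GDel2. In all 3 the GDel2 libraries lay well above every other library. At the common ratio stood Mpv17l2, D8Ertd738e and Chtf8, each at 0.44.

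The members were grouped by function, in lists drawn up with results of these data known. Over all 540 members 56.7% were called higher and 6.30% lower, so a list near those shares shows nothing of its own. Genes of translation had the highest median, 0.68 on the log2 scale, beside 0.44 over all members, with 14 of 17 called higher and 0 lower. Examples are Kars, a transfer RNA ligase, at 0.68, Abce1, which recycles ribosomes, at 0.86, and Nob1, which trims ribosomal RNA, at 0.88.

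Genes that license and fire replication origins came next, at a median of 0.64 with 7 of 9 called higher and 0 lower. Mcm5, a subunit of the replicative helicase, had a CPM of 313, 321 and 310 in wildtype, 346 and 340 in GDel1, and 484 and 496 in GDel2. Tfdp1, the partner of E2F factors, was at 0.74. Proteasome and ubiquitin genes, at a median of 0.56, counted 11 of 13 as higher, among them the proteasome subunit Psmd7 at 0.84, Nae1, which activates NEDD8, at 1.02, and the immunoproteasome subunit Psmb10 at 1.62. In mitosis and centromere genes 13 of 16 were higher, led by the centromere protein Cenpu at 1.02, and 1 was lower, Cenpt at -0.36, a call that was lost without GDel2 replicate 2 (adjusted p = 0.104 by edgeR) or any 1 wildtype library (0.0573 to 0.0623).

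The median of secretory pathway genes was 0.48, and 14 of 19 were called higher and 0 lower. They included Herpud1, whose values are given above, and Spcs3, a signal peptidase subunit, which was at 1.01. Mitochondrial proteins, at 0.44, had 15 of 20 higher and 0 lower, from Gcsh at 0.03 to Micu3, a regulator of calcium uptake, at 1.23. RNA processing genes, at 0.44, had 13 of 20 higher and 0 lower, all within 0.05 and 0.73. DNA repair and telomere genes, at 0.44, had 11 of 17 higher and 0 lower, from Acd at -0.28 to the repair polymerase Polb at 1.12.

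Chromatin genes, at 0.39, counted 12 of 22 as higher and 0 as lower, beside 56.7% higher and 6.30% lower over all 540 members, and ran from the acetyltransferase Kat6a at -0.10 to the methyltransferase Prmt7 at 1.00. Sterol and lipid enzymes had a median of 0.50, with 7 of 9 higher, such as the sterol oxidase Msmo1 at 0.87, and 1 lower, Lpl. In redox and metal genes, at 0.42, 4 of 9 were higher, among them Hmox1 and the reductase Nqo1 at 0.65, and 2 were lower, Mt1 and Mt2. Of 8 adhesion genes, at 0.50, 4 were higher, including the E-cadherin gene Cdh1 at 0.64 and the integrin Itgb1 at 0.78, and 2 were lower, Fat1 and the P-cadherin gene Cdh3, whose call was lost without GDel2 replicate 2 (adjusted p = 0.185 by edgeR) or any 1 wildtype library (0.0554 to 0.0959). Signalling receptors and kinases had the lowest median, 0.15, with 5 of 15 higher, 3 lower and 5 escaping. The 3 lower were Adgrg1, Irs2 and Insr, and the last was called in 3 of the 7 fits without 1 library and not without GDel2 replicate 2. The low signalling median was uneven between the GDel2 libraries, at 0.36 in replicate 1 and -0.05 in replicate 2. In GDel1 the order of these lists was alike, with medians of -0.26 for signalling and 0.12 each for translation and replication. Over all members the GDel1 median was -0.01.

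The 2 short lists held few members. Of 5 immediate early genes, 2 were called higher, among them Junb at 1.03, and of 3 developmental factors 1, Zfp42. Klf2, a naive pluripotency factor on both lists, had a CPM of 166, 162 and 172 in wildtype, 113 and 153 in GDel1, and 151 and 116 in GDel2, below wildtype in all 4 deletion libraries with GDel1 and GDel2 overlapping.

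**Figure D4:**
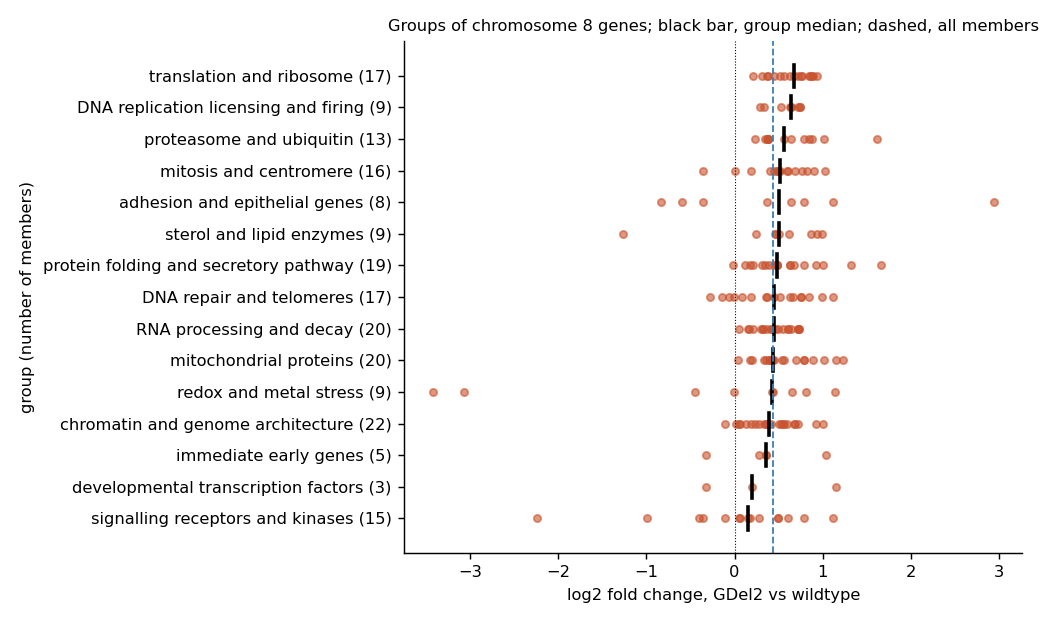
Fitted log2 fold change of GDel2 against wildtype (horizontal axis) for the members of 15 functional groups (vertical axis, number of members in brackets); points are genes, black bars group medians and the dashed line the median of all 540 members, 0.44. Translation and replication lie to the right at 0.68 and 0.64, signalling lies to the left at 0.15, and Mt2 and Mt1 stand alone at the far left. The signalling median was 0.36 in GDel2 replicate 1 and -0.05 in GDel2 replicate 2.

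Several protein complexes have some subunits encoded on chromosome 8 and others elsewhere, which sets members beside partners in the same libraries. All 3 chromosome 8 subunits of GINS, which helps unwind origins, were called higher, Gins2 at 0.74, Gins4 at 0.63 and Gins3 at 0.53, and Gins1 on chromosome 2 lay at 0.14 and was not called. Gins2 and Gins3 were called in 3 of the 7 fits without 1 library. The highest adjusted p by edgeR was 0.201 for Gins2, without GDel2 replicate 1, and 0.0707 for Gins3, without GDel2 replicate 2. Mcm5 lay at 0.64, against a median of 0.01 for the other 5 MCM subunits, of which 2 were called higher. These were Mcm2, on chromosome 6, and Mcm6, whose call was lost without any 1 wildtype or GDel2 library (adjusted p = 0.0897 to 0.178 by edgeR). Orc6, of the origin recognition complex, lay at 0.72 with 61.5, 71.9 and 71.7 CPM in wildtype, 82.9 and 81.2 in GDel1, and 108 and 116 in GDel2; its 5 partners had a median of 0.09 with 2 higher, Orc2 and Orc3, both lost in several fits without 1 library (adjusted p up to 0.183 and 0.146 by edgeR). Rnaseh2a, the catalytic subunit of the RNase H2 that cuts RNA in RNA-DNA hybrids, lay at 0.76, and its partners Rnaseh2b and Rnaseh2c at -0.08 and -0.04. Its CPM was 38.3, 37.7 and 40.8 in wildtype, 45.7 and 55.2 in GDel1, and 67.0 and 64.6 in GDel2.

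Of the Golgi tethering complex COG, Cog2, Cog4 and Cog8 were called higher, at 0.68, 0.63 and 0.39, the last lost without any 1 wildtype or GDel2 library (adjusted p = 0.0849 to 0.139 by edgeR). The 5 COG genes elsewhere ran from -0.44 to 0.69, with 2 higher and 1 lower; among these the calls of Cog3 and Cog7 were lost in 4 and 3 of the 7 fits (adjusted p up to 0.149 and 0.137 by edgeR). The deadenylase complex CCR4-NOT had Cnot7 at 0.72 and its scaffold Cnot1 at 0.32, against a median of -0.10 for 9 partners, 3 of them higher and 2 lower; the call of Cnot6l was lost in 3 of the 7 fits (adjusted p up to 0.150 by edgeR). In shelterin, which caps telomeres, 0 of the 3 chromosome 8 genes were called by edgeR: Acd lay at -0.28, Terf2ip at 0.08 and Terf2 at 0.19. The 3 shelterin genes elsewhere ran from -0.33 to 0.70, with 1 higher, Pot1a, and 1 lower, Terf1. Both of these calls were lost in some fits without 1 library. Differences between genes on and off the chromosome were not tested.

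Ctcf had a mean TPM of 34.8 and a CPM of 188, 189 and 174 in wildtype, 197 and 166 in GDel1, and 222 and 224 in GDel2. The GDel2 libraries were above the other 5, and the wildtype and GDel1 libraries overlapped. Its log2 ratio, 0.28 ± 0.10, or 1.22-fold, was under the common 1.36. Its call stood at the threshold and was lost without any 1 wildtype or GDel2 library (adjusted p = 0.112 to 0.175 by edgeR). Mau2, which loads cohesin, lay at 0.24, and the 9 CTCF and cohesin genes listed elsewhere in the genome had a median of 0.05 with 0 called by edgeR in either direction.

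**Figure D5:**
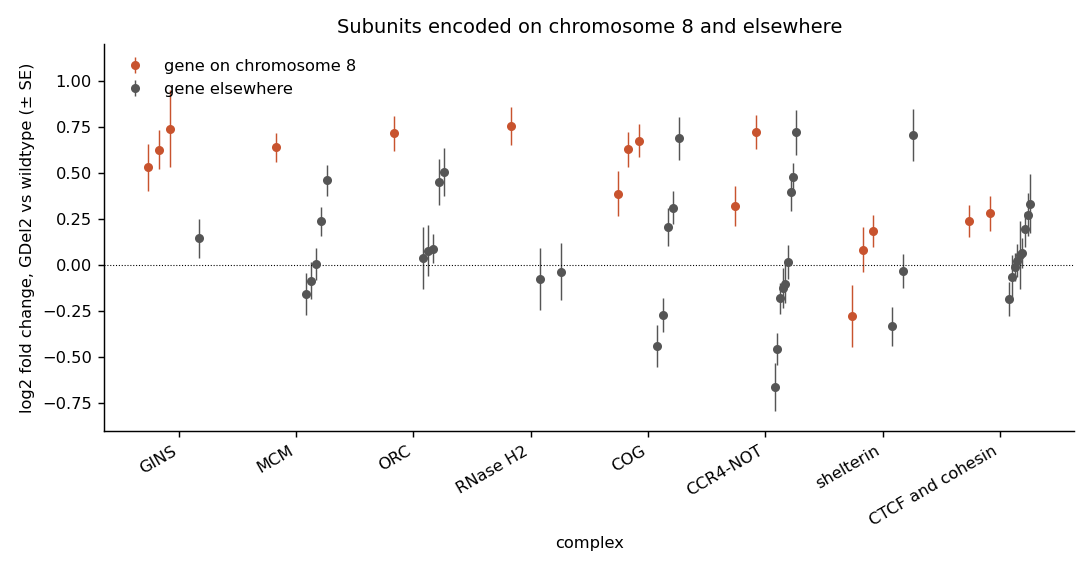
Fitted log2 fold change of GDel2 against wildtype with its standard error (vertical axis) for the subunits of 8 complexes (horizontal axis), encoded on chromosome 8 (red) or elsewhere (grey). The red points of GINS, MCM, ORC, RNase H2 and COG lie between 0.39 and 0.76, and the shelterin ones from -0.28 to 0.19.

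GDel1, which carries the same genotype label, gave few calls against wildtype. Of the 540 genes, 0 were called higher and 2 lower by edgeR, where 0.162% and 0.214% of all genes passed; at an unadjusted p under 0.05 the counts were 61 and 75, and DESeq2 called 17 and 17. Cdh3 had a CPM of 7.88, 7.55 and 8.93 in wildtype, and 3.30 and 3.90 in GDel1 (log2 ratio -1.16, adjusted p = 0.0463 by edgeR). Nfat5, a transcription factor of the osmotic stress response, had 233, 219 and 217 in wildtype and 144 and 160 in GDel1 (log2 ratio -0.55, adjusted p = 0.0488 by edgeR). Neither group overlapped with wildtype. With any wildtype or GDel2 library left out 0 members were called lower, and without GDel1 replicate 1 or replicate 2 the counts were 47 or 8 higher and 30 or 26 lower.

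Set against each other, GDel2 and GDel1 differed at 306 of the 540 genes by edgeR, with 282 higher and 24 lower in GDel2. Over all genes 14.8% passed as higher and 12.8% as lower. This contrast has the GDel2 libraries in common with the one against wildtype. The genes called lower included Mt2, Mt1, Ido2, Pkd1l2, Adgrg1, Lpl, Adrb3, Ndrg4, Atp11a, Homer3, D230025D16Rik, Zfp869, Irs2, Sfrp1 and Cyba, a subunit of NADPH oxidase. All of these 15 were called in each of the 7 fits that left out 1 library. Of all 282 higher and 24 lower calls, 155 and 18 were; Tdrp, Cmtm3 and Dnase2a, called lower, were called in 2 of the 7 and Adam9 in 1.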

How the data were processed

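RNA-Seq of 7 libraries used total RNA freed of ribosomal RNA and a directional kit, per the labels' protocols. Per the submitters' processing notes the tools include STAR and RSEM, without versions, and the build mm10. Neither strand setting nor annotation release was stated there. The deposited expected counts are estimates per gene, not scaled for depth, and were rounded. The deposited TPM is scaled by the authors over effective length and to a fixed sum. The deposited FPKM, scaled by the authors per kilobase and library size, was not used. Symbols came from a table of gene names, and positions and biotype from RefSeq (GRCm38.p6).

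Genes were kept by filterByExpr (minimum count 10, minimum total 15), which left 15421 genes with 99.9% of counts. R 4.3.3, edgeR 4.0.16 (TMM, robust quasi-likelihood, 3 groups in 1 fit) and Benjamini-Hochberg adjustment at 0.05 were used. For departures, the log of the chromosome's median ratio was added to the GDel2 offsets; this was tested on simulated data. Alternatives used DESeq2 1.42.0, limma 3.58.1 on log2(TPM + 1), other scalings and filters, and libraries left out.

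The members, the gene lists and the tests were chosen with earlier results of these data known. Genes were named by rule: the 6 of highest TPM, the 10 lowest escaping and 8 highest genes with a TPM of 5 or more, the 4 nearest the median, those called in GDel1, list extremes, complex subunits, and Ctcf. Replicate numbers were not used to pair the libraries in the reported fit. The other 59 of 66 samples are not analysed here.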

Additional observations from a re-analysis of the deposited data

Results flagged for a closer look

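GDel1 and GDel2, which share a genotype label, differed directly at 282 chromosome 8 genes higher and 24 lower in GDel2 (edgeR). Over all genes 14.8% were called higher and 12.8% lower. The chromosome was chosen for high values in these same GDel2 libraries, so the higher count is a description.

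For 5 genes named by rule, both GDel2 libraries lay on one side of the wildtype mean and both GDel1 libraries on the other. They were picked for that pattern, so the differences between the groups are descriptions with no test. The log2 difference of GDel2 minus GDel1 was -3.52 for Mt2, 1.59 for Herpud1, 1.40 for Adgrl1, 0.84 for Nfat5 and 0.66 for Mpv17l2. In GDel1 itself the log2 ratio to wildtype was 0.09 for Mt2, -0.27 for Herpud1, -0.29 for Adgrl1, -0.55 for Nfat5 and -0.22 for Mpv17l2.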

How the results depend on the processing

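Against 306 higher and 34 lower calls of GDel2 against wildtype, limma on log2(TPM + 1) gave 125 and 18, and leaving out 1 library gave 223 to 350 and 19 to 38; a TPM minimum of 5 gave 21 lower. GDel1 against wildtype, 0 higher and 2 lower, moved to 35 and 35 with no filter on low counts, 17 and 17 with DESeq2, 0 to 47 and 0 to 30 with 1 library left out, and 90 and 86 without GDel1 replicate 1 and GDel2 replicate 2, an alternative chosen after seeing the data. Its lower count was 0 with total count scaling, 1 with TMM factors from the chromosomes other than 6, 8, 11 and Y, 166 with limma and 1 at a TPM of 5 or more. GDel2 against GDel1, 282 higher and 24 lower, gave 198 to 306 and 18 to 32 with 1 library left out, with 7 lower by limma and 14 at a TPM of 5. Departures from the common ratio were 36 to 120 above and 43 to 111 below with 1 library left out, and 52 below at a TPM of 5.

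The GDel2 median of 0.44 was 0.40 with total count scaling, 0.48 with the TMM factors that leave out those chromosomes, 0.36 on deposited TPM (all genes at -0.10), 0.46 without GDel1 replicate 1 and GDel2 replicate 2 and 0.40 to 0.45 with 1 library left out. The GDel1 median was -0.084 with total count scaling, -0.51 on deposited TPM (all genes at -0.47) and -0.027 to -0.0033 with 1 library left out. Escaping genes numbered 32 at a TPM of 5 and 55 to 120 with 1 library left out. Among windows of 5 Mb with 20 or more genes the highest median was 0.66, at 90 to 95 Mb. The thinner windows between 40 and 50 Mb had 0.72 and 0.70. Higher medians were reached by 3 genes at 15 to 20 Mb (0.93), 3 at 50 to 55 Mb (0.89) and 10 at 60 to 65 Mb (0.86). The place of the highest median thus depended on the window size. The GDel2 median stayed above 0 in the alternatives given here. No named gene past the threshold in the reported fit or an alternative changed direction. Counts of calls have no direction to change, and the sign of the GDel1 median, which lay near 0, was not followed. The cause of these shifts was not tested.

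Same-numbered GDel1 and GDel2 libraries had deviations correlated at -0.32. With 2 libraries in each group the crossed pairs give the same value with its sign reversed. The correlation thus cannot decide whether the replicate numbers pair the libraries. With the replicate block the calls were 167 higher and 19 lower for GDel2 against wildtype, 0 lower for GDel1, 155 higher for GDel2 against GDel1, and 28 above and 39 below the common ratio. With numbers crossed, an alternative chosen after seeing the data, GDel2 against GDel1 gave 361 higher and 32 lower. Of the named genes' values under alternatives, 1871 kept their side of the threshold, 208 lost a call and 50 gained one. With 2 libraries in each deletion group, the spread rests on all groups together, and when 1 is left out the lone library is assumed to vary like the rest.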
